A study of Mus musculus with 20 samples.

Results

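The genes described here are 45 cell cycle and proliferation genes of the mouse, measured in kidney and liver of mice labelled as lacking the nuclear receptor Lxrα and in wild-type mice. They were chosen by symbol for their known roles, not by a threshold on measured values, but with earlier results of these data known. The list is therefore not independent of the data. Each symbol matched exactly 1 row of the count table, so that 45 of its 54532 genes are members. The RNA came from male mice on a C57BL/6 background given as Lxrα-/- or wild type, in 20 libraries that form 4 groups of 5, a kidney and a liver group for each genotype. Labelled knockout libraries carry the title numbers 1 to 5 and wild-type libraries 1, 3, 4, 5 and 6. A kidney and a liver with the same genotype and title number were treated as organs of 1 mouse, which no label states. Age, diet, the deleted part of the gene and littermate status are not given in the labels. Flash-frozen tissue was extracted in bulk. Fewer dividing cells, less RNA per dividing cell and less RNA from other cells therefore cannot be told apart in any value below.

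Total counts ran from 23421561 to 35376342 per library. Values per library are CPM, the usual library-scaled counts with a TMM factor set within each tissue, given in the order of the title numbers. Groups are given as mean ± SD over their 5 libraries (n = 5). Fold changes are log2 values with a standard error (SE), negative where the labelled knockout was lower. A gene was called where the p of edgeR's quasi-likelihood test, adjusted by Benjamini and Hochberg over all genes tested, was under 0.05. The knockout labels could not be checked by the targeted gene. Counts of Nr1h3, which encodes Lxrα, were higher in both labelled knockout groups, at 126 ± 21.7 against 52.1 ± 2.27 CPM in kidney (log2 fold change 1.27, SE 0.16, adjusted p = 0.00209) and at 167 ± 18.0 against 98.2 ± 13.6 CPM in liver (log2 fold change 0.76, SE 0.12, adjusted p = 0.00278). Since the table gives no exon, such counts cannot tell an intact from a deleted allele, and the direction of every comparison rests on the labels. Tissue labels matched their markers, with 5 of 5 proximal tubule genes higher in kidney and 5 of 5 hepatocyte genes higher in liver. Among wild-type kidneys, library 3 drew 50.8% of its counts from mitochondrially encoded genes and library 1 drew 7.21%, against 12.6 to 21.1% in the other kidneys. The list of kidney tubule injury markers held Havcr1, Lcn2, Krt20, Vcam1 and Sox9, and its name does not apply to liver. Among livers it summed to 1257 and 4156 CPM in labelled knockout livers 4 and 5 and to at most 39.8 CPM in the others. Counts of calls are therefore also given without these kidneys or livers.

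A cell that divides first licenses its replication origins by loading the Mcm2 to Mcm7 helicase with Cdc6 and Cdt1, then copies its DNA under cyclin E, cyclin A and E2F control. Mitosis follows under cyclin B and Cdk1, with a spindle and kinetochores assembled by kinesins, Aurora kinases and checkpoint proteins, and it ends with anaphase and cytokinesis. Most cells of adult kidney and liver are quiescent, and Mki67 is the usual marker of the small share that divides. How much of each member's RNA came from dividing cells was not measured.

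Many genes of this kind carry short promoter elements that are read by shared regulators, E2F factors at G1 to S genes and the DREAM and MuvB complexes with NF-Y at G2 to M genes. The 160 bases upstream of the RefSeq start are shown for 8 members that span both classes and that were called lower in kidney, in liver or in both, chosen after their values and motif matches were seen. They were taken from RefSeq on GRCm38.p6, the build that mm10 names, read 5′ to 3′ on the gene's strand, with matches to the searched motifs in capitals. Mki67 lies at chr7:135716380-135716539, reverse strand, Cdk1 at chr10:69352913-69353072, reverse strand, Top2a at chr11:99024190-99024349, reverse strand, Cdc20 at chr4:118437344-118437503, reverse strand, Kif11 at chr19:37376222-37376381, forward strand, Mcm5 at chr8:75109349-75109508, forward strand, Mcm6 at chr1:128359706-128359865, reverse strand and Dtl at chr1:191575545-191575704, reverse strand.
Mki67: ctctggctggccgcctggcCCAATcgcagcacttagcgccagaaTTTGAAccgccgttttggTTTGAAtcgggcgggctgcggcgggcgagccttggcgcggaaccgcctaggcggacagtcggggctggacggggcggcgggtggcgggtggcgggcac
Cdk1: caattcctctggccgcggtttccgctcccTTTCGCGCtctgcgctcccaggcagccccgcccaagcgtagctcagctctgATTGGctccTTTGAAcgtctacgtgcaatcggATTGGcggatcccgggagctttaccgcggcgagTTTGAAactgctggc
Top2a: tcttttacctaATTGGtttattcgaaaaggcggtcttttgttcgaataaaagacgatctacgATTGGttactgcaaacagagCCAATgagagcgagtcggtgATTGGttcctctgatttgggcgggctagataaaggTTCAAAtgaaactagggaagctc
Cdc20: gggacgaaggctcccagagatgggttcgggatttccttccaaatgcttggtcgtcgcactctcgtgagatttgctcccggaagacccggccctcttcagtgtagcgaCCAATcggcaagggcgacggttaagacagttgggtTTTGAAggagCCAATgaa
Kif11: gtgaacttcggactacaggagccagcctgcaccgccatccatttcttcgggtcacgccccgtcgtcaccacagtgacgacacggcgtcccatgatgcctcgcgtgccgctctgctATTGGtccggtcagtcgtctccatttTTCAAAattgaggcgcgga
Mcm5: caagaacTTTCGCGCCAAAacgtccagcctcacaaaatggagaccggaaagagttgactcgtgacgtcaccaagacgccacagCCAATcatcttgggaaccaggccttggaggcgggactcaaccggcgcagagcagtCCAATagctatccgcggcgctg
Mcm6: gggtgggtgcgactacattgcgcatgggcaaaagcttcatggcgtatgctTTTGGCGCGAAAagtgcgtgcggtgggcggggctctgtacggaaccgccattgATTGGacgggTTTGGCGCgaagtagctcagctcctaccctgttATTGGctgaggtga
Dtl: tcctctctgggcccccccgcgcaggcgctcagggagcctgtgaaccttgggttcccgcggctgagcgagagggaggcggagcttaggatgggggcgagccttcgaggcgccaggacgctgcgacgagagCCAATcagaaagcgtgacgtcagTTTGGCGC
The motifs searched on both strands were the CHR element TTTGAA, the CCAAT box CCAAT, and the E2F site as TTTGGCGC, TTTCCCGC, TTTGGCGG or TTTCGCGC. In the windows of Mcm5 and Mcm6, the first run of capitals holds 2 E2F matches that overlap each other on opposite strands. CHR and CCAAT letters stand together upstream of Mki67, Cdk1, Top2a, Cdc20 and Kif11, and E2F and CCAAT letters upstream of Mcm5, Mcm6 and Dtl, while Cdk1 holds all 3 kinds.

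RefSeq windows of 250 bases before to 50 bases after the start were found for 36 of the 45 members, in 39 windows. Those not found were Aurkb, Ccna2, Ccne2, Foxm1, Gins1, Kif20a, Mcm4, Pimreg and Tpx2. The CHR letters were in 16 of the 39 windows (41.0%), against 17.9% of all 32851 windows in the table. A CCAAT box was in 29 (74.4%, against 37.4%), an E2F match in 9 (23.1%, against 2.37%) and CHR with CCAAT in 15 (38.5%, against 6.95%). By role, E2F letters were in 6 of the 8 windows of the licensing and helicase genes and in 0 of the 8 windows of the spindle and kinetochore genes, and CHR letters were in 1 and 5 of these windows. These matches describe sequence and are not measured binding.

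In kidney, each of the 7 role groups, from origin licensing to cytokinesis, held a member called lower in the labelled knockout. Of the 45, all passed the filter on low counts, 22 were called lower and 0 higher, where 1.87% of the 16500 genes tested were called lower and 0.394% higher. All 45 log2 fold changes were negative, from -2.72 for Neil3 to -0.06 for Tyms, with a median of -1.23 against -0.07 over all genes tested. Wild-type and labelled knockout libraries did not overlap for 24 members, against 4.13% of all genes tested that were lower without overlap. Neil3, Pimreg and Dtl had been singled out in kidney by earlier results of these data. Without them 19 of 42 members were called lower. Summed over the 45 members, wild-type kidneys held 322.6 to 544.1 CPM and labelled knockout kidneys 230.6 to 299.4 CPM, without overlap. By role, the summed levels did not overlap for the S-phase regulation group, at 17.3 to 30.5 against 7.73 to 9.60 CPM, and the mitotic entry group, at 19.4 to 42.3 against 9.36 to 18.3 CPM, and overlapped for the other 5.

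The count of kidney calls moved with single libraries. It was 10 without labelled knockout kidney 5, and 11 without labelled knockout kidney 1 or without 4, as the calls over all genes went from 373 to 104, 129 and 99. In the other leave-one-out fits it was 15 to 25, and it was 30 without wild-type kidneys 1 and 3. Aurkb, Bub1, Cenpf, Dtl, Mcm5, Mki67, Prc1, Rrm2 and Uhrf1 kept their call in each of the 10 fits that left out 1 library, and the other 13 lost it in 1 to 6 of them, with adjusted p of at most 0.0928. No member was called higher in any kidney fit run, DESeq2 and limma voom included, and 0 had an unadjusted p under 0.05 toward higher, where 5.81% of all genes tested did.

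**Figure D1:**
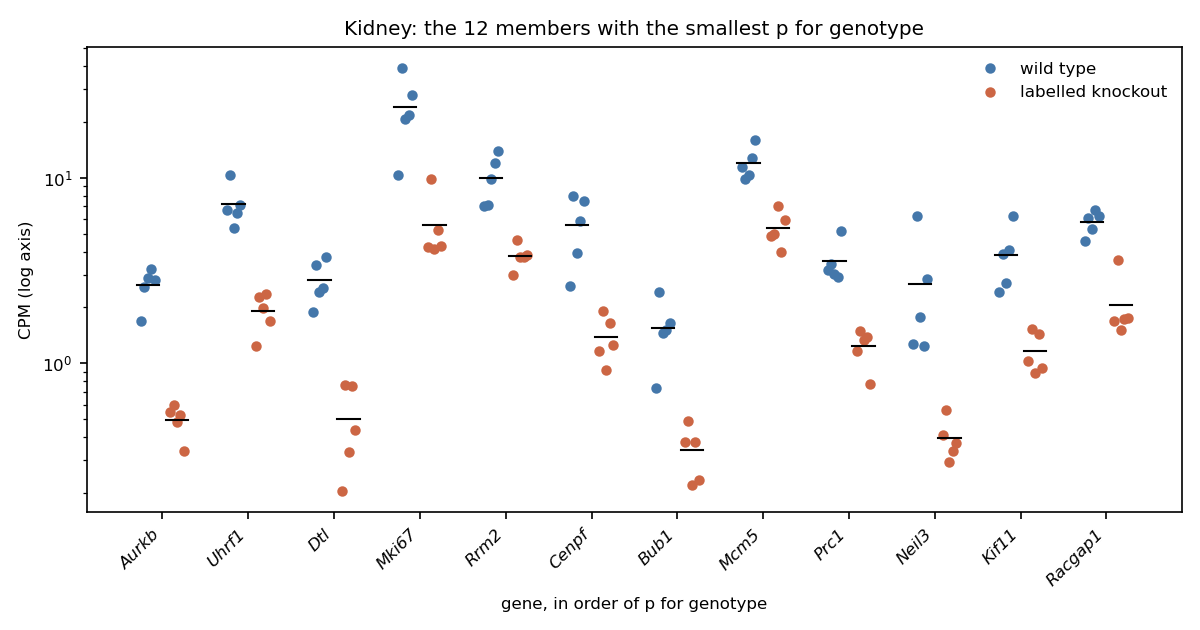
Level of the 12 members with the smallest p for genotype in kidney, as CPM on a log axis, with 1 point per library, blue for wild type and orange for labelled knockout, and a black line at each group mean. The groups do not overlap for any of these 12 genes, from Aurkb (2.63 against 0.497 CPM on average) to Racgap1 (5.77 against 2.06 CPM).

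Among the 9 genes of origin licensing and the replicative helicase, Mcm5, Mcm3 and Cdc6 were called lower in kidney, and the median of the 9 was -0.51. Mcm5, a subunit of the helicase whose upstream sequence is shown above, stood at 11.4, 9.79, 10.3, 12.7 and 15.8 CPM in wild-type kidneys and 4.87, 4.96, 7.03, 3.99 and 5.88 CPM in labelled knockout kidneys. Each labelled knockout library was under each wild-type library (log2 fold change -1.17, SE 0.20, adjusted p = 0.0127). The subunit Mcm3 was at 10.4 ± 2.08 against 4.48 ± 1.44 CPM (log2 fold change -1.22, SE 0.24, adjusted p = 0.0238). Cdc6, which loads the helicase at origins, was at 2.09 ± 0.580 against 0.576 ± 0.273 CPM (log2 fold change -1.85, SE 0.37, adjusted p = 0.0241). Both of these genes separated the genotypes without overlap. Mcm3 was not called without wild-type kidney 4 or 5 or without labelled knockout kidney 1, 3, 4 or 5, nor Cdc6 without wild-type kidney 5 or labelled knockout kidney 1 or 5. The other helicase subunits moved less, with log2 fold changes of -0.63 for Mcm4, -0.41 for Mcm2, -0.21 for Mcm6 and -0.19 for Mcm7, none of them called. Cdt1, the partner of Cdc6, was at -0.51 with no overlap and Gins1, of the GINS complex that activates the helicase, at -0.42, neither called. Thus subunits of 1 hexamer had fold changes from -1.22 to -0.19, and the differences between subunits were not tested.

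In the group of the replication clamp and nucleotide supply, Rrm2 alone of 5 was called lower in kidney, and the group's median was -0.46. Rrm2 encodes the small subunit of ribonucleotide reductase and is made in S phase. It was at 7.01, 7.16, 9.83, 11.9 and 13.8 CPM in wild-type kidneys and 2.98, 4.61, 3.74, 3.73 and 3.85 CPM in labelled knockout kidneys. The highest labelled knockout library, 2, was under the lowest wild-type library, 1 (log2 fold change -1.40, SE 0.23, adjusted p = 0.0117). Rrm1, the large subunit, had -0.60 (SE 0.21, adjusted p = 0.143), Tk1, thymidine kinase, -0.46 (SE 0.20, adjusted p = 0.236), Pcna, the sliding clamp, -0.22 (SE 0.27, adjusted p = 0.644) and Tyms, thymidylate synthase, -0.06 (SE 0.22, adjusted p = 0.895) as log2 fold changes. None of these 4 was called, and genotypes overlapped for each.

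Of the 6 genes of S-phase regulation, chromatin and repair, Uhrf1, Dtl and Neil3 were called lower in kidney, and the group's median was -1.57. Uhrf1, which guides maintenance of DNA methylation at replication forks, was at 6.65, 10.4, 5.32, 6.41 and 7.15 CPM in wild-type kidneys and 1.23, 2.27, 1.997, 2.37 and 1.69 CPM in labelled knockout kidneys. All labelled knockout values were under the lowest wild-type value, in library 4 (log2 fold change -1.91, SE 0.25, adjusted p = 0.00310). Dtl, the substrate receptor of the ubiquitin ligase that removes Cdt1, was at 1.88, 3.39, 2.43, 2.54 and 3.74 CPM in wild-type and 0.206, 0.768, 0.333, 0.753 and 0.439 CPM in labelled knockout kidneys. Again no library overlapped (log2 fold change -2.47, SE 0.37, adjusted p = 0.00674). Neil3, a DNA glycosylase, was at 1.26, 6.19, 1.77, 1.24 and 2.83 CPM in wild-type and 0.411, 0.558, 0.296, 0.339 and 0.371 CPM in labelled knockout kidneys. Wild-type kidney 3 stood far above its group for Neil3, and the lowest wild-type value was still above every labelled knockout value (log2 fold change -2.72, SE 0.48, adjusted p = 0.0127). Without labelled knockout kidney 4 its adjusted p was 0.0503. The cyclins E, which start S phase with Cdk2, were not called, at -1.23 for Ccne1 (adjusted p = 0.0630, no overlap) and -1.17 for Ccne2, nor was the transcription factor E2f1 at -0.43, which also had no overlap.

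Ccna2, Cdk1 and Foxm1 were called lower in kidney among the 7 genes of mitotic entry, with a group median of -1.51. Ccna2, cyclin A of S and G2 phase, was at 3.55, 10.01, 6.75, 6.62 and 8.88 CPM in wild-type kidneys and 2.23, 3.11, 2.92, 2.03 and 2.26 CPM in labelled knockout kidneys. Genotypes did not overlap, and wild-type kidney 1 was the lowest of its group (log2 fold change -1.51, SE 0.28, adjusted p = 0.0158). Cdk1, the kinase of mitosis, was at 3.03, 5.59, 8.37, 6.62 and 10.6 CPM in wild-type and 1.51, 3.32, 1.81, 1.73 and 1.72 CPM in labelled knockout kidneys. Here labelled knockout kidney 2 was above wild-type kidney 1, so the groups overlapped (log2 fold change -1.76, SE 0.34, adjusted p = 0.0200). Foxm1, a transcription factor of G2 and mitosis genes, was at 4.94 ± 2.56 against 1.48 ± 0.449 CPM without overlap (log2 fold change -1.73, SE 0.34, adjusted p = 0.0208). The 2 B-type cyclins, Plk1 and Aurka were not called, at -1.65 for Ccnb1, -1.26 for Ccnb2 (adjusted p = 0.0535), -1.42 for Plk1 and -0.68 for Aurka. Without labelled knockout kidney 1, 4 or 5, none of Ccna2, Cdk1 and Foxm1 was called, with adjusted p of 0.0533 to 0.0724. Cdk1 and Foxm1 were not called without labelled knockout kidney 3 either (adjusted p = 0.059 and 0.0595), nor Cdk1 without wild-type kidney 4 (adjusted p = 0.0526).

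The group of chromosome structure, spindle, kinetochore and checkpoint had the lowest median in kidney, -1.84, and 8 of its 10 genes were called lower. Mki67, the coat of mitotic chromosomes and the common marker of cycling cells, was at 10.3, 38.8, 20.6, 21.6 and 27.9 CPM in wild-type kidneys and 4.25, 9.77, 4.14, 5.24 and 4.29 CPM in labelled knockout kidneys. Labelled knockout kidney 2, the highest of its group, came close to wild-type kidney 1, the lowest of its own, without overlap (log2 fold change -2.10, SE 0.34, adjusted p = 0.0108). Cenpf, a protein of the outer kinetochore, was at 2.62, 7.96, 3.93, 5.84 and 7.48 CPM in wild-type and 1.17, 1.92, 0.925, 1.66 and 1.25 CPM in labelled knockout kidneys (log2 fold change -2.001, SE 0.33, adjusted p = 0.0120). Bub1, a checkpoint kinase, was at 0.739, 2.42, 1.47, 1.51 and 1.66 CPM in wild-type and 0.377, 0.489, 0.222, 0.377 and 0.236 CPM in labelled knockout kidneys (log2 fold change -2.17, SE 0.38, adjusted p = 0.0123). For both genes wild-type kidney 3 was the highest library and no library crossed between genotypes.

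Kif11, the kinesin that pushes spindle poles apart, was at 2.43, 3.87, 2.70, 4.05 and 6.21 CPM in wild-type kidneys and 1.03, 1.54, 0.888, 1.43 and 0.945 CPM in labelled knockout kidneys. Its genotypes did not overlap either (log2 fold change -1.72, SE 0.31, adjusted p = 0.0137), and without labelled knockout kidney 5 its adjusted p was 0.0529. The remaining calls of the group were Top2a, which untangles sister chromatids, at -1.96 (adjusted p = 0.0202), Bub1b of the checkpoint at -1.38 (0.0230), the spindle assembly factor Tpx2 at -1.71 (0.0294) and Pimreg at -2.61 (0.0222). These 4 lost their call without labelled knockout kidney 1, 4 or 5, Top2a, Tpx2 and Pimreg also without 3, and Tpx2 also without wild-type kidney 4 or 5. Pimreg had few reads, with 3 to 94 counts per kidney library. The kinetochore motor Cenpe (-0.68) and the spindle protein Nusap1 (-0.46) were not called and overlapped.

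Aurkb had the smallest p of all members in kidney and was the only 1 called of the 3 members that belong to the chromosomal passenger complex. This kinase corrects the attachment of chromosomes to the spindle and acts again in cytokinesis. It was at 1.69, 2.58, 2.89, 3.21 and 2.80 CPM in wild-type kidneys and 0.549, 0.593, 0.481, 0.527 and 0.338 CPM in labelled knockout kidneys. Every labelled knockout library was under 0.6 CPM and every wild-type library above 1.6 CPM (log2 fold change -2.39, SE 0.28, adjusted p = 0.00208). Its partners Birc5 (-1.13, adjusted p = 0.0831) and Cdca8 (-0.78, adjusted p = 0.107) were not called and overlapped.

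Prc1, Racgap1 and Cdc20 were called lower in kidney among the 5 genes of mitotic exit and cytokinesis, with a group median of -1.22. Prc1, which bundles the microtubules of the midzone, was at 3.19, 3.44, 3.01, 2.93 and 5.17 CPM in wild-type kidneys and 1.17, 1.501, 1.33, 1.39 and 0.777 CPM in labelled knockout kidneys. Racgap1, of the same midzone, was at 4.58, 6.08, 5.28, 6.72 and 6.18 CPM in wild-type and 1.68, 3.60, 1.52, 1.73 and 1.76 CPM in labelled knockout kidneys. Neither gene overlapped between genotypes (log2 fold change -1.52, SE 0.27, adjusted p = 0.0127 for Prc1 and log2 fold change -1.48, SE 0.27, adjusted p = 0.0151 for Racgap1). Cdc20, the activator of the anaphase-promoting complex, was at 6.22 ± 1.44 against 2.68 ± 0.809 CPM (log2 fold change -1.22, SE 0.25, adjusted p = 0.0275). Racgap1 was not called without labelled knockout kidney 1, 4 or 5, nor Cdc20 without these, labelled knockout kidney 3, or wild-type kidney 4 or 5. Of the kinesins of cytokinesis, Kif20a was at -0.80 and Kif20b at -0.59, neither called. Kif20b ranged from 19.1 CPM in wild-type kidney 1 to 121 CPM in wild-type kidney 3, and without the latter library its log2 fold change was -0.05.

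Several marker lists moved with the members in kidney. Summed lymphocyte markers were at 12.2 to 22.0 CPM in wild-type and 4.53 to 8.34 CPM in labelled knockout kidneys, with 5 of 11 genes called lower. Fibroblast and pericyte markers were at 217 to 633 against 71.7 to 138 CPM, with 4 of 6 called lower, and interferon response genes at 73.5 to 109 against 29.9 to 40.4 CPM, with 5 of 6 called lower. The plasma cell sum was higher in labelled knockout kidneys, at 116 to 155 against 168 to 215 CPM, with 0 of 4 genes called and 2 of 4 on each side of 0, Mzb1 the lowest (-1.18) and Xbp1, with most of the counts, at 0.51. Sums overlapped for endothelial (1 of 5 called lower), macrophage (0 of 6), neutrophil (0 of 2 tested), erythroid (0 of 5 tested), tubule injury (0 of 4 tested), hepatocyte (0 of 4 tested) and proximal tubule markers (1 of 5 called higher). All 5 endothelial genes (median -0.79) and all 6 macrophage genes (median -0.49) still had negative values. So did 4 of 5 erythroid, 3 of 4 tubule injury and 1 of 4 hepatocyte genes, and 0 of the neutrophil and proximal tubule genes. Mpo had no count in either kidney group and Elane and Cps1 none in labelled knockout kidneys, while every lymphocyte and fibroblast marker had counts in both. The part of these cell types in the difference of the members was not tested.

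**Figure D2:**
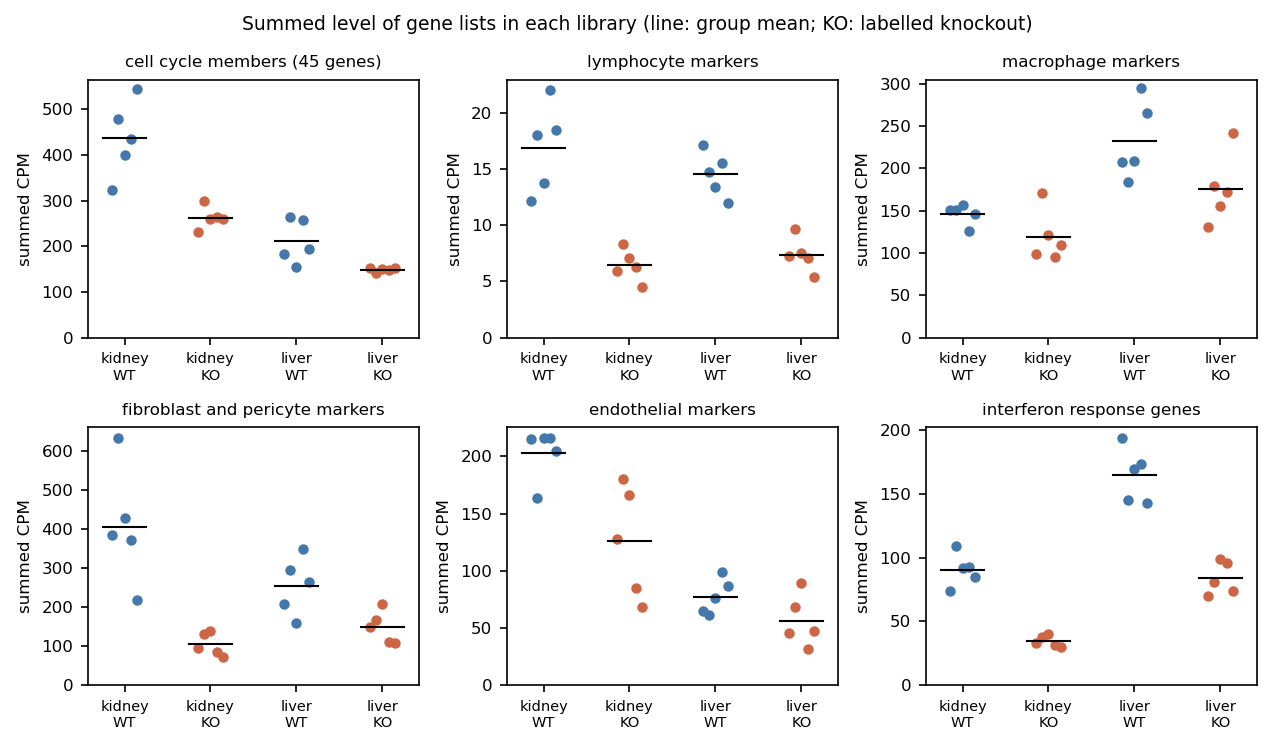
Summed CPM of the 45 members and of 5 marker lists in each of the 20 libraries, with 1 point per library, blue for wild type, orange for labelled knockout and a line at the group mean, on linear axes from 0. The members, lymphocyte markers and interferon response genes do not overlap between genotypes in either tissue, with member sums of 322.6 to 544.1 against 230.6 to 299.4 CPM in kidney.

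In liver, too, each of the 7 role groups held a member called lower in the labelled knockout. Of 43 members that passed the filter, 12 were called lower and 0 higher, where 4.08% of the 14822 genes tested were called lower and 1.94% higher. The median log2 fold change was -0.99 against 0.00 over all genes tested, 40 of the 43 values were negative, and the range ran from -2.20 for Cenpf to 0.27 for Mcm7. Genotypes did not overlap for 7 members, against 4.53% of all genes that were lower without overlap. Summed over the 45 members, wild-type livers held 155.5 to 263.9 CPM and labelled knockout livers 142.3 to 153.4 CPM, so that wild-type liver 4 stood just above the labelled knockout range. Bub1 and Pimreg failed the filter. Bub1 was at 0.272, 0.772, 0.457, 0.455 and 0.690 CPM in wild-type and 0.150, 0.335, 0.372, 0.0867 and 0.116 CPM in labelled knockout livers, and Pimreg at 0.194, 0.735, 0.527, 0.520 and 1.47 CPM in wild-type and 0.112, 0.0839, 0.0413, 0.318 and 0.231 CPM in labelled knockout livers, and both overlapped.

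Rrm2, Kif20b, Cenpe, Top2a, Cdk1 and Mcm6 kept their liver call in each fit that left out 1 library, and the other 6 lost it in 2 to 9 of these fits. The count was 7 without wild-type liver 3, 5 or 6 or without labelled knockout liver 2, and 8 to 16 in the other leave-one-out fits. Limma voom with quality weights and limma-trend on the deposited log2 FPKM values both called 7. With library size alone 15 were called, and 216 genes were higher and 766 lower over all genes in place of 288 and 605. Leaving out labelled knockout livers 4 and 5 gave 9. With the number in the titles as a replicate block, 1 was called, Rrm2. Kif20b, Cenpe, Top2a, Cdk1 and Mcm6 then had adjusted p of 0.0639 to 0.138. Whether these numbers pair the mice is not known. Over the 11 alternatives other than leave-one-out fits, Rrm2 alone kept its call in all, and the other 11 members lost it in 1 to 8. As in kidney, 0 members were called higher in any fit, and 0 had an unadjusted p under 0.05 toward higher, where 8.76% of all genes tested did.

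**Figure D3:**
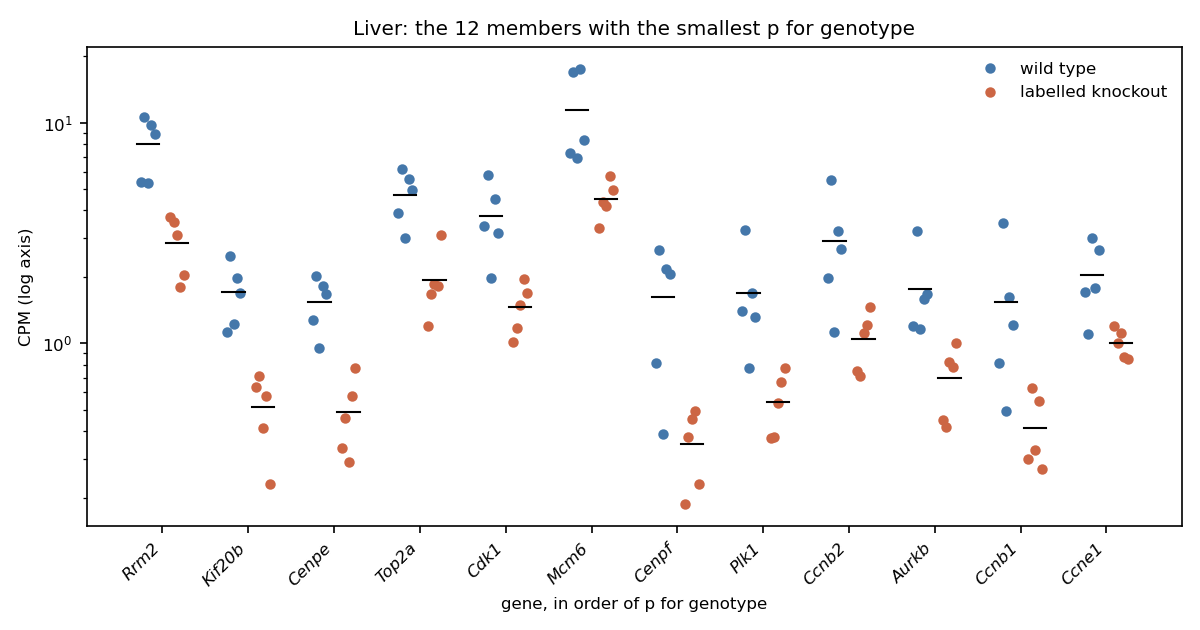
Level of the 12 members called in liver, as CPM on a log axis, with 1 point per library, blue for wild type and orange for labelled knockout, and a black line at each group mean. Rrm2 (7.96 against 2.85 CPM on average), Kif20b and Mcm6 separate the genotypes fully, while wild-type liver 4 falls among or near the labelled knockout libraries for Cenpf, Ccnb1 and Ccnb2.

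Mcm6 was the only gene called in liver among the 9 of origin licensing and the helicase. It was at 7.29, 16.9, 6.89, 17.5 and 8.36 CPM in wild-type livers and 3.33, 4.36, 4.17, 5.75 and 4.94 CPM in labelled knockout livers. Wild-type livers 3 and 5 were far above the other 3, and all 5 were above the labelled knockout libraries (log2 fold change -1.33, SE 0.29, adjusted p = 0.0150). In kidney the same gene had a log2 fold change of -0.21. Mcm3 (-0.45), Mcm4 (-0.46), Mcm5 (-0.50), Mcm2 (-0.22), Cdc6 (-1.05) and Cdt1 (-0.28) were not called in liver, and Mcm7 (0.27) and Gins1 (0.10) were 2 of the 3 members with positive values, the third being E2f1 (0.19).

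Rrm2 had the smallest p of all members in liver. It was at 5.35, 10.6, 5.31, 9.71 and 8.85 CPM in wild-type livers and 3.74, 3.56, 3.10, 1.79 and 2.04 CPM in labelled knockout livers. The groups did not overlap, and wild-type livers 1 and 4 were the lowest of theirs (log2 fold change -1.49, SE 0.27, adjusted p = 0.00529). The other 4 genes of the clamp and nucleotide group had log2 fold changes from -0.36 (Rrm1) to -0.09 (Pcna), none called. Ccne1, cyclin E1, was at 1.71, 1.10, 2.99, 1.79 and 2.64 CPM in wild-type and 1.20, 1.01, 1.12, 0.868 and 0.849 CPM in labelled knockout livers. Wild-type liver 3 lay within the labelled knockout range (log2 fold change -1.02, SE 0.28, adjusted p = 0.0480), and Ccne1 kept its call in 1 of the 10 leave-one-out fits, that without wild-type liver 3. The others of its S-phase group were not called, from -1.17 for Uhrf1, -1.11 for Neil3 and -0.99 for Dtl to -0.73 for Ccne2 and the positive value of E2f1.

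Mitotic entry was the role group with the largest share of calls in liver, 4 of 7, with a median of -1.35. Cdk1, the mitotic kinase, was at 3.41, 5.77, 1.97, 4.51 and 3.16 CPM in wild-type livers and 1.01, 1.17, 1.49, 1.97 and 1.70 CPM in labelled knockout livers. Labelled knockout liver 4 was almost equal to wild-type liver 4, and the groups did not overlap (log2 fold change -1.35, SE 0.29, adjusted p = 0.0148). Plk1, a kinase that drives mitotic entry, was at 1.40, 3.27, 0.773, 1.69 and 1.32 CPM in wild-type and 0.374, 0.377, 0.537, 0.665 and 0.771 CPM in labelled knockout livers (log2 fold change -1.61, SE 0.38, adjusted p = 0.0253). Labelled knockout liver 5 and wild-type liver 4 were almost equal for Plk1.

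Ccnb2, a B-type cyclin, was at 1.98, 5.51, 1.12, 3.21 and 2.67 CPM in wild-type livers and 0.749, 0.713, 1.12, 1.21 and 1.47 CPM in labelled knockout livers (log2 fold change -1.46, SE 0.38, adjusted p = 0.0390). Ccnb1, the main mitotic cyclin, was at 0.815, 3.53, 0.492, 1.62 and 1.21 CPM in wild-type and 0.299, 0.629, 0.331, 0.549 and 0.270 CPM in labelled knockout livers (log2 fold change -1.86, SE 0.50, adjusted p = 0.0434). In both cyclins wild-type liver 3 was the highest library and wild-type liver 4 lay within the labelled knockout range. Ccna2 (-1.07, adjusted p = 0.0595), Foxm1 (-0.84) and Aurka (-0.19) were not called. Plk1 was not called without wild-type liver 3 or 5 or labelled knockout liver 1 or 2. Among the 10 leave-one-out fits, Ccnb1 was called in those without wild-type liver 1 or 4 and in no other, and Ccnb2 in these and in that without labelled knockout liver 5.

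Cenpe, Top2a and Cenpf were called lower in liver among the 8 tested genes of the chromosome and spindle group, with a median of -1.25. Cenpe, the kinesin that carries chromosomes to the spindle equator, was at 1.28, 2.02, 0.949, 1.82 and 1.67 CPM in wild-type livers and 0.337, 0.461, 0.289, 0.578 and 0.771 CPM in labelled knockout livers. It did not overlap (log2 fold change -1.65, SE 0.32, adjusted p = 0.00869). Top2a was at 3.88, 6.14, 2.99, 5.55 and 4.94 CPM in wild-type and 1.20, 1.68, 1.86, 1.82 and 3.09 CPM in labelled knockout livers, where labelled knockout liver 5 passed wild-type liver 4 (log2 fold change -1.28, SE 0.26, adjusted p = 0.0122). Cenpf was at 0.815, 2.65, 0.387, 2.18 and 2.07 CPM in wild-type and 0.187, 0.377, 0.455, 0.492 and 0.231 CPM in labelled knockout livers (log2 fold change -2.20, SE 0.49, adjusted p = 0.0200), and here wild-type liver 4 lay within the labelled knockout range. Cenpf was not called without wild-type liver 3 or 6 (adjusted p = 0.0511 and 0.0532). Nor was Cenpf called with limma voom (adjusted p = 0.178), with limma-trend (0.08) or without labelled knockout livers 4 and 5 (0.08). With the number in the titles as a replicate block its adjusted p was 0.171.

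Mki67 just missed the threshold in liver. It was at 5.93, 14.3, 4.18, 8.18 and 8.33 CPM in wild-type livers and 2.62, 2.47, 2.69, 3.35 and 6.48 CPM in labelled knockout livers. Labelled knockout liver 5, the highest of its group, was above wild-type livers 1 and 4 (log2 fold change -1.22, SE 0.34, adjusted p = 0.0549). The remaining genes of the group, Tpx2 (-1.44), Nusap1 (-1.01), Bub1b (-0.87) and Kif11 (-0.75), each had an unadjusted p under 0.05 and were not called. Over all members, 27 of 43 had an unadjusted p under 0.05 with a lower value in liver, where 11.5% of all genes tested did, and 37 of 45 in kidney, where 14.0% did.

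Aurkb and Kif20b were called in liver from the groups of the passenger complex and of mitotic exit. Aurkb was at 1.20, 3.23, 1.16, 1.59 and 1.67 CPM in wild-type livers and 0.449, 0.419, 0.827, 0.781 and 1.003 CPM in labelled knockout livers, with no overlap (log2 fold change -1.34, SE 0.35, adjusted p = 0.0399) and a call in 3 of 10 leave-one-out fits, those without wild-type liver 1 or 4 or labelled knockout liver 5. Kif20b, a kinesin of late cytokinesis, was at 1.12, 2.50, 1.23, 1.98 and 1.70 CPM in wild-type and 0.636, 0.713, 0.413, 0.578 and 0.231 CPM in labelled knockout livers. Its highest labelled knockout library, 2, was under the lowest wild-type library, 1 (log2 fold change -1.72, SE 0.33, adjusted p = 0.00853). Cdc20 (-1.66, adjusted p = 0.0644), Racgap1 (-1.28), Kif20a (-0.70), Prc1 (-0.68), Birc5 (-0.84) and Cdca8 (-0.65) were not called.

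In liver, summed lymphocyte markers were at 11.98 to 17.2 CPM in wild-type and 5.4 to 9.69 CPM in labelled knockout mice, with 6 of 10 tested genes called lower and 1 higher. Interferon response genes were at 143 to 194 against 70.1 to 98.8 CPM, with 6 of 6 called lower. Summed hepatocyte markers were at 85040 to 113200 against 46680 to 80190 CPM, with 1 of 5 called lower. Their median log2 fold change was -0.19. Of the 5 values 4 were negative and 1 was positive, at 0.37, for a gene that was higher without overlap and not called. Fibroblast and pericyte (3 of 6 called lower), endothelial (1 of 5), macrophage (1 of 6) and plasma cell sums (1 of 4) overlapped, as did erythroid sums (1 of 5 tested called higher). Values were negative for 5 of 6 fibroblast and pericyte, 5 of 5 endothelial, 6 of 6 macrophage, 3 of 4 plasma cell and 4 of 5 erythroid genes. Of neutrophil markers 0 of 2 tested were called. Of the genes listed as tubule injury markers of kidney, 2 of 3 tested were called higher. Slc5a2 and Slc22a6 of proximal tubule had no count in labelled knockout livers, and 1 of 1 tested gene of that list was called higher. As in kidney, the part of these cell types in the result was not tested.

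The calls of the 2 tissues shared 5 members, Aurkb, Cdk1, Cenpf, Rrm2 and Top2a, which are 22.7% of the kidney calls and 41.7% of the liver calls. Over all genes, 95 were called lower in both, which are 30.8% of the genes called lower in kidney and 15.7% of those in liver. Of the members, a further 17 were called in kidney alone and 7 in liver alone, and 16 in neither. The 17 include Bub1 and Pimreg, which were not tested in liver. All these shares are of every call in a tissue, including genes not tested in the other, and 13912 genes were tested in both. Kidneys and livers were treated as coming from the same mice, so the tissues are not independent of each other.

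Whether the effect of genotype differed between the tissues was tested as the effect in kidney minus the effect in liver, in a fit of all 20 libraries. Of the 45 members 0 were called by edgeR, where 1.51% of the 17606 genes tested were called, and DESeq2 and limma voom called 0 as well. At an unadjusted p under 0.05, 7 of the 45 members had the more negative effect in kidney, where 7.16% of all genes did, and 2 in liver, where 6.37% did. Neil3, Pimreg and Dtl had been singled out in kidney by earlier results of these data. The differences of Dtl and Neil3 below are therefore not independent of that choice. Without these 3 genes, 5 of 42 members had the more negative effect in kidney at that limit and 2 in liver, with a median difference of -0.24. The median difference was -0.27 for members and -0.04 for all genes, and that of members moved with single libraries. It was -0.16 without wild-type kidney 6, and -0.48, -0.46, -0.45 and -0.42 without labelled knockout kidney 2, wild-type liver 3, wild-type kidney 1 and wild-type liver 5. Dtl had the smallest p, with a difference of -1.46 (SE 0.48, unadjusted p = 0.00644, adjusted p = 0.154). Mcm6 had the opposite sign, at 1.14 (SE 0.38, unadjusted p = 0.00707, adjusted p = 0.162), and its values stand out in the plot of both effects. For Neil3 the difference was -1.57 (SE 0.66, unadjusted p = 0.0274, adjusted p = 0.298), and for Aurkb -1.04 (SE 0.45, unadjusted p = 0.0301, adjusted p = 0.309). A gene called in 1 tissue alone is therefore not shown to differ between them, and these tests do not show that the effects are equal.

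**Figure D4:**
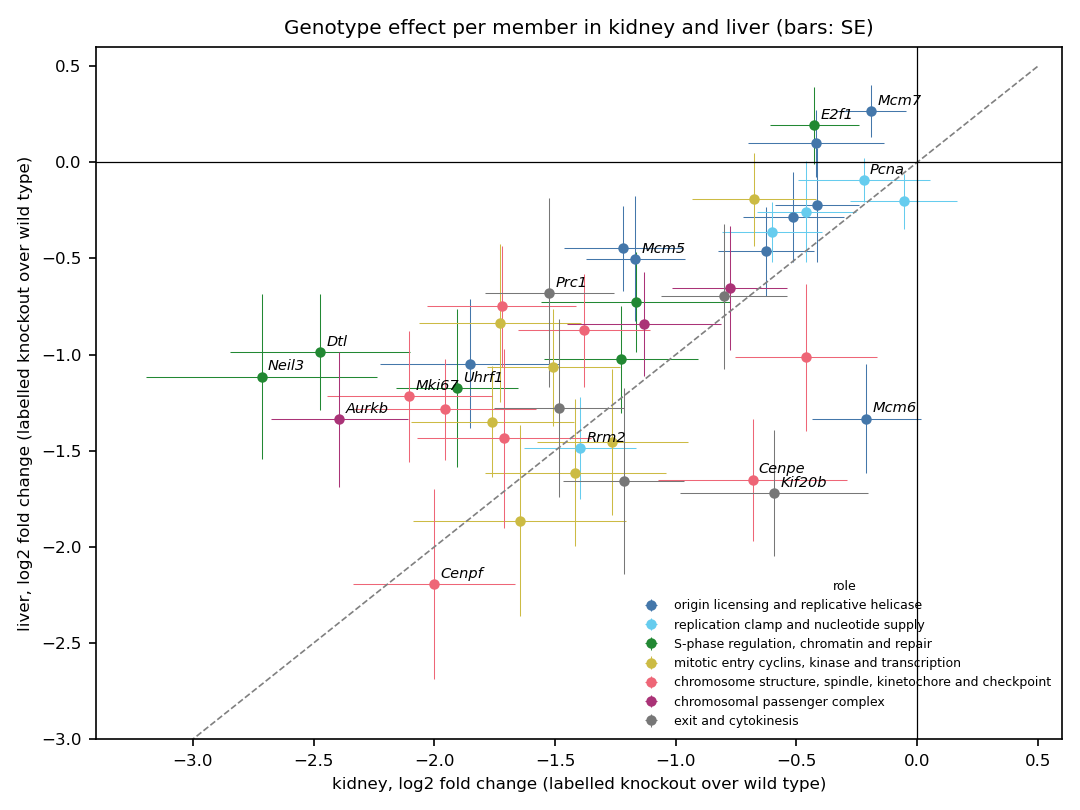
Log2 fold change of labelled knockout over wild type in kidney (horizontal) and liver (vertical) for the 43 members tested in both tissues, coloured by role, with bars of 1 SE and a dashed line of equal effects. Almost all points lie at the lower left, below 0 on both axes, with Mcm6 at -1.33 in liver against -0.21 in kidney and Dtl at -0.99 in liver against -2.47 in kidney.

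Levels per gene length in wild-type mice were compared as FPKM, computed from the counts with 1 TMM scaling over all libraries. Pcna was the highest member in both tissues, at 13.7 ± 6.18 FPKM in kidney and 13.9 ± 1.51 FPKM in liver, with wild-type kidneys at 12.2, 5.30, 12.4, 16.3 and 22.2. The next in kidney were Kif20b at 6.14 ± 4.39 and Mcm7 at 5.43 ± 0.602 FPKM, and in liver Tk1 at 7.09 ± 2.38 and Mcm7 at 3.78 ± 0.564 FPKM. Their SDs show that ranks 2 to 4 in kidney, with Mcm6 at 5.22 ± 1.91, lie within each other's spread. At the low end Dtl was at 0.162 ± 0.0426 FPKM in kidney and 0.0820 ± 0.0217 in liver, Bub1 at 0.283 ± 0.104 and 0.150 ± 0.0558, and Cenpf at 0.285 ± 0.114 and 0.130 ± 0.0772. Mki67 was at 1.87 ± 0.793 FPKM in kidney and 1.01 ± 0.466 in liver.

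Between wild-type tissues, 11 members were called higher in kidney and 4 higher in liver, where 29.6% of the 16645 genes tested were called higher in kidney and 24.2% higher in liver. The median log2 of kidney over liver was 0.44 for members and 0.05 for all genes. Kif20b differed most, with 2.22, 13.4, 6.60, 3.29 and 5.22 FPKM in kidneys and 0.202, 0.441, 0.218, 0.358 and 0.298 FPKM in livers. Every kidney was above every liver, by a log2 of 4.34 (SE 0.47, adjusted p = 2.83e-06). Mcm2 was higher in kidney, at 2.33 ± 0.517 against 0.851 ± 0.216 FPKM, a log2 of 1.46 (SE 0.22, adjusted p = 6.02e-05). Tk1 was higher in liver, at 2.78 ± 0.317 against 7.09 ± 2.38 FPKM, a log2 of -1.34 (SE 0.22, adjusted p = 0.000119), and so was Gins1, at 1.38 ± 0.490 against 3.22 ± 0.719 FPKM, a log2 of -1.21 (SE 0.28, adjusted p = 0.00206). Neither overlapped between tissues. The other calls toward kidney were Mcm5, Mcm7, Cdc6, Uhrf1, Dtl, Foxm1, Mki67, Cenpe and Nusap1, and those toward liver Ccne1 and Aurka. Of these 15 calls, 8 held in each of the 10 fits that left out 1 library: Cenpe, Dtl, Gins1, Kif20b, Mcm2, Mcm7, Tk1 and Uhrf1. Mki67 lost its call in 8 of these fits, all but those without wild-type kidney 1 or wild-type liver 3, and Nusap1 in 7, all but those without wild-type kidney 1 or 3 or wild-type liver 3. Without wild-type liver 4, Mcm5, Cdc6, Ccne1 and Foxm1 were not called either. Mcm5 was also lost without wild-type liver 1 or 6, Ccne1 without wild-type kidney 5 or wild-type liver 6, Foxm1 without wild-type kidney 3 or wild-type liver 1, and Aurka without wild-type liver 3 or 5.

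This split rests on the scaling between tissues. With library size alone, 28 members were higher in kidney and 1, Tk1, in liver, as the median of all genes moved from 0.05 to 0.69 and that of members from 0.44 to 1.05. Over all genes that scaling called 8536 higher in kidney and 2166 higher in liver, in place of 4921 and 4033. Gins1 was then at -0.58 and not called (adjusted p = 0.0726), nor were Ccne1 (-0.31) and Aurka (-0.26). Relative to all genes the members' median was 0.39 with TMM and 0.36 without, but 0.20 without wild-type liver 4 and 0.24 without wild-type kidney 6, and 0.55 with limma voom. With the mouse as a block 17 and 4 were called, without wild-type kidneys 1 and 3 17 and 2, and without wild-type liver 4 6 and 3.

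**Figure D5:**
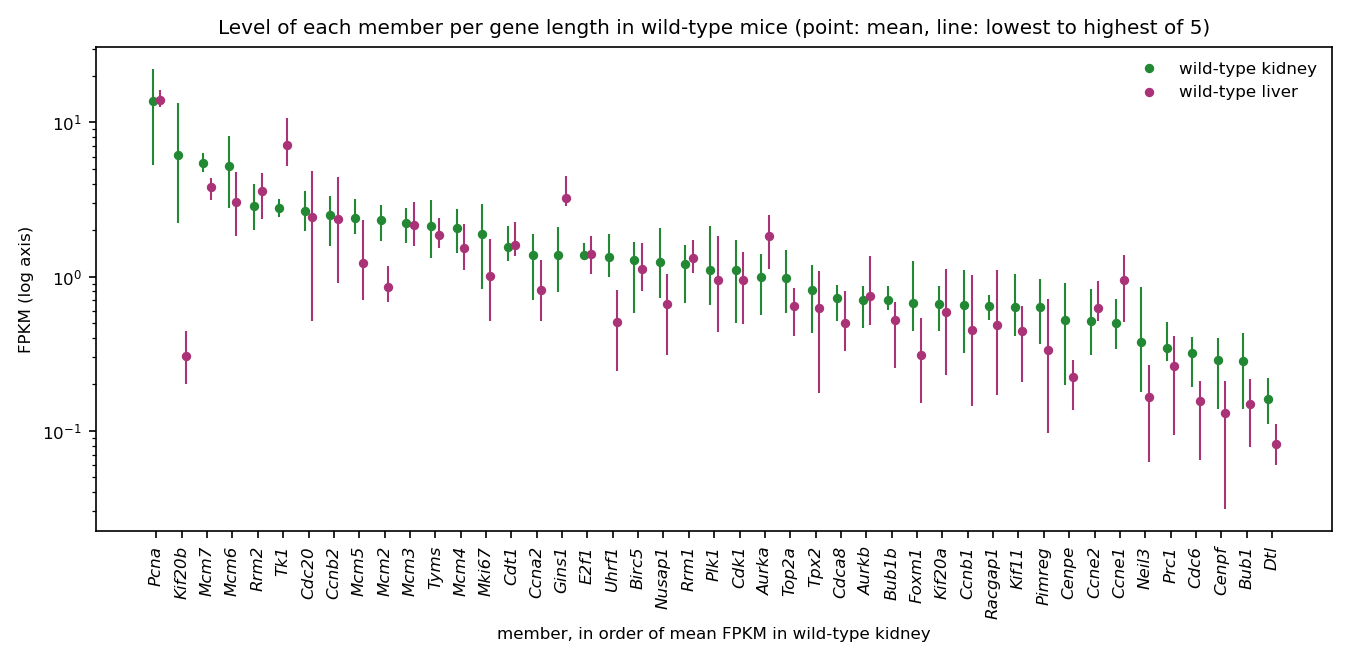
Level of each of the 45 members in wild-type kidney (green) and wild-type liver (purple) as FPKM on a log axis, with a point at the mean and a line from the lowest to the highest of 5 libraries, ordered by the kidney mean. Levels span from about Pcna (13.7 FPKM in kidney) to Dtl (0.162), and Kif20b shows the widest gap between tissues (6.14 against 0.304 FPKM).

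A further 102 genes of the cell cycle were followed as a list that does not contain the members. In kidney 101 were tested, and 23 were called lower and 0 higher, where 1.87% of all genes tested were called lower and 0.394% higher. The median of the 101 was -0.67, against -0.07 over all genes tested. The calls were 16 of 48 mitosis genes, 4 of 25 replication genes, 2 of 15 tested G1 genes and 1 of 13 E2F and MuvB genes, and the difference between these shares was not tested. Cdc7, the kinase that fires origins, was at 3.60 ± 1.82 against 0.793 ± 0.223 CPM (log2 fold change -2.17, SE 0.36, adjusted p = 0.0117). Chaf1b, of the chromatin assembly factor at forks, was at 3.74 ± 1.22 against 1.07 ± 0.288 CPM (log2 fold change -1.80, SE 0.30, adjusted p = 0.0117). Ncapg of condensin (-2.38), the chromokinesin Kif4 (-1.98), the centromeric histone Cenpa (-1.48) and Ube2c, which works with the anaphase-promoting complex (-1.99), followed by p, each without overlap between genotypes. Cenpa and Ube2c were not called without labelled knockout kidney 3 or 5, nor Cenpa without 4. The count of 23 was 4 without labelled knockout kidney 3 or 5, 5 without 4 and 6 without 1, and 8 and 11 without wild-type kidneys 5 and 4.

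In liver 93 of the 102 passed the filter, with a median of -0.53. Of these, 15 were called lower and 1 higher, where 4.08% of all genes tested were called lower and 1.94% higher. Spc25 of the kinetochore was at 4.88 ± 1.002 against 2.07 ± 0.228 CPM (log2 fold change -1.23, SE 0.18, adjusted p = 0.00148). Ttk, the checkpoint kinase Mps1, was at 0.654 ± 0.238 against 0.0766 ± 0.0490 CPM with as few as 1 count per library (log2 fold change -3.05, SE 0.45, adjusted p = 0.00164), and Chaf1b was at -1.35. Ckap2 (-2.15), a spindle protein, and Ect2 (-1.71), which activates RhoA in cytokinesis, overlapped between genotypes. Ect2 was not called without labelled knockout liver 4 (adjusted p = 0.0559), and without both 4 and 5 neither Ect2 (adjusted p = 0.114) nor Ckap2 (adjusted p = 0.0837) was. Limma voom did not call Ckap2 (adjusted p = 0.106). The count of 15 was 5 without labelled knockout liver 4, 7 to 9 without wild-type liver 3, 5 or 6 or labelled knockout liver 2, and 6 without labelled knockout livers 4 and 5.

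Mcm10 was the 1 gene of this list called higher in liver. It encodes a replication factor that binds the helicase at firing origins. It was at 71.2, 64.4, 91.5, 66.3 and 61.0 CPM in wild-type livers and 214, 161, 216, 104 and 101 CPM in labelled knockout livers. All labelled knockout livers were above all wild-type livers, with numbers 1 and 3 the highest (log2 fold change 1.17, SE 0.22, adjusted p = 0.00846). It averaged 70.9 ± 12.1 against 159 ± 56.2 CPM and kept its call in 10 of 10 leave-one-out fits. With the number in the titles as a replicate block it was not called (log2 fold change 1.03, adjusted p = 0.121). In kidney Mcm10 was at 7.91 ± 1.82 against 8.42 ± 1.21 CPM (log2 fold change 0.09, SE 0.19, adjusted p = 0.797).

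Some members overlap another annotated gene, and whether the authors counted by strand is not given in the sources used here. Reads in the shared bases are therefore uncertain for Mcm7 (with Cops6 and Ap4m1), Tk1 (Afmid), Ccne2 (Ints8), Ccna2 (Exosc9), Cdca8 (9930104L06Rik), Cdc20 (Elovl1), Kif20a (Cdc23), Prc1 (Rccd1) and Nusap1 (Oip5). The other cell cycle genes, Mcm10 among them, were not searched for such overlaps.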

How the data were processed

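Kidney and liver RNA of mice was sequenced in 20 libraries. The authors deposited read counts per gene, which were whole numbers, beside log2 FPKM values. The submitters' processing notes name HISAT2 2.0.5, StringTie, DESeq2 1.16.1 and the mm10 build without their roles, and the counting tool and strand setting are not given in the sources used here. From the counts, edgeR 4.0.16 in R 4.3.3 gave quasi-likelihood tests after filterByExpr with a minimum count of 10 and TMM scaling, with p adjusted by Benjamini and Hochberg over all genes tested. Kidney and liver were fitted separately, each with 5 against 5 libraries; the difference of effects and the tissues were fitted over 20 and 10. The deposited log2 FPKM values served only an alternative with limma 3.58.1, and DESeq2 1.42.0 was another. FPKM in the text was computed from the deposited counts and gene lengths. The main edgeR fit of each comparison was also run on simulated counts with known changes, and the alternative fits were not.

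The 45 members and all gene lists were chosen with earlier results of these data known. Genes named in full were Mki67, the 12 with the smallest p in each tissue, the smallest p of each role group, the 4 smallest p of the tissue and difference tests, the highest and lowest 3 by FPKM, members that failed a filter, and for the other cell cycle genes the 6 smallest p per tissue and any call against the list's direction. A kidney and a liver that share genotype and number in their titles were treated as organs of 1 mouse, although no label states it. Their deviations from the group means correlated at -0.149 to 0.278 over the 10 mice. Total counts limit precision most for genes with under 10 counts in some libraries. No label says how the libraries of a group were sampled, so the p-values measure the spread between these libraries, which may be technical in part. Age, diet and litter were not analysed here.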

Additional observations from a re-analysis of the deposited data

Results flagged for a closer look

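There were 180 groups of 5 libraries, 1 for each member, tissue and genotype. Of these, 21 held a library whose gap to its nearest neighbour was over 0.71 of the group's range. Normally distributed values pass this limit by chance in about 1 in 20 groups. The limit was applied to CPM without a log, and their distribution was not checked, so that rate may not hold here. Members share libraries, so these groups are not independent. Labelled knockout kidney 2 stood highest for 6 members of mitosis: Ccnb1 at 2.41 CPM, Cdk1 at 3.32, Mki67 at 9.77, Top2a at 5.93, Tpx2 at 2.69 and Birc5 at 4.15. For Racgap1, the midzone protein, it was at 3.60 CPM against 1.52 to 1.76 in its group. The other labelled knockout kidneys were at 4.14 to 5.24 CPM for Mki67 and at 1.51 to 1.81 for Cdk1.

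Wild-type kidney 3 stood highest for the mitotic regulators Foxm1, at 9.47 CPM against 3.21 to 4.203, and Plk1, at 6.03 against 1.81 to 2.72. Wild-type kidney 6 did so for Prc1, at 5.17 CPM, and E2f1, at 6.47 CPM. Among wild-type livers, library 5 stood highest for Gins1 (5.42 CPM) and Ccne2 (2.60 CPM), library 3 for Aurkb (3.23 CPM) and library 6 for Cdt1 (5.80 CPM).

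Labelled knockout liver 5 stood highest for Mki67, at 6.48 CPM against 2.47 to 3.35, and for Foxm1, at 1.58 against 0.455 to 0.781. Labelled knockout liver 4 was highest for Mcm7 (20.7 CPM), labelled knockout liver 1 for Nusap1 (2.06 CPM) and labelled knockout liver 3 for Birc5 (2.85 CPM), while labelled knockout liver 3 was lowest for Rrm1 (7.56 CPM against 9.17 to 9.77).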

How the results depend on the processing

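The counts of members called lower moved by up to 1.5 times under the alternatives run, except as follows. In kidney, 22 became 10 to 25 when 1 library was left out. In liver, 12 became 7 with limma voom, 7 with limma-trend on log2 FPKM and 7 to 16 when 1 library was left out. The 15 members that differed between wild-type tissues became 29 with library size alone, 25 with limma voom and 9 to 21 when 1 library was left out. Of the other cell cycle genes, 23 lower in kidney became 37 with DESeq2, 46 with voom, 15 with limma-trend and 4 to 28 with 1 library left out, and 0 higher became 1 with DESeq2, 1 in a fit of all 20 libraries and 3 with voom. In liver their 15 became 26 with DESeq2, 9 with voom, 6 without labelled knockout livers 4 and 5 and 5 to 17 with 1 library left out. Over all genes, 373 calls in kidney became 948 in a fit of all 20 libraries, 1093 with DESeq2, 2151 with voom, 237 with limma-trend, 590 without wild-type kidneys 1 and 3, and 99 to 921 with 1 library left out. In liver 893 became 1448 with DESeq2 and 575 to 913 with 1 library left out, and the 265 differences between tissues became 605 with DESeq2, 176 with library size alone, 681 with voom and 165 to 487. The cause was not tested.

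Where the number in the titles entered the fit as a replicate block, members called lower were 24 in kidney and 1 in liver (Rrm2), other cell cycle genes in liver 3 lower and 0 higher, and all genes 902 in kidney and 307 in liver. Whether the numbers pair the mice across genotypes is not known. Deviations of same-numbered mice correlated at 0.04 to 0.173 in kidney and -0.036 to 0.02 in liver. Not every library correlated best with its own number. Low correlations of this kind cannot exclude a pairing. With the mouse as a block, 0 members differed between tissues in their effect and 21 between wild-type tissues. Signs turned in members that were not called: in kidney, Mcm6 became 0.050 with the block and ran from -0.35 to 0.0015 with 1 library left out, Pcna 0.093 and -0.41 to 0.018, and Tyms 0.11 and -0.16 to 0.12, beside 0.056 with limma-trend. In liver Pcna became 0.049 and Tk1 0.058 without labelled knockout livers 4 and 5, and Tk1 0.033 with voom. Low counts limit several members in liver, among them Bub1 and Pimreg, which failed the filter.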

Other observations

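Genes that act at entry into the cycle were also followed. Of 15 tested D cyclins, G1 kinases, inhibitors and pocket proteins, 2 were called lower in kidney, Cdkn1a and Rbl1. Cdkn1a, which encodes the inhibitor p21, was at 6.40 ± 0.723 against 3.16 ± 0.558 CPM (log2 fold change -1.02, SE 0.20, adjusted p = 0.0233), and the pocket protein gene Rbl1 at 10.3 ± 1.83 against 5.57 ± 0.863 CPM (log2 fold change -0.89, SE 0.19, adjusted p = 0.0324). Of the E2F and MuvB list, E2f8, a repressor of the E2F family, was the 1 call among 13 (log2 fold change -2.59, SE 0.58, adjusted p = 0.0361). In liver 3 of 14 tested genes of G1 were called lower, Cdkn2c (-0.69), Cdk6 (-0.41) and Ccnd1 (-1.30), and 0 of 13 of the E2F and MuvB list. In the 10 fits that left out 1 library, Cdkn1a and E2f8 kept their kidney call in 4 and Rbl1 in 5, and Cdkn2c kept its liver call in 3 and Cdk6 and Ccnd1 in 2. These genes are named because of their calls, after their values were seen, and the difference from the mitosis genes was not tested.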
